A study of Mus musculus with 20 samples.

Results

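The genes described here control growth through the kinase mTOR or serve the uptake and use of glucose. They are Mtor, Rptor, Rictor, Tsc1, Tsc2, Fnip1, Hif1a, Slc2a1, Slc2a3 and Hk2, 10 genes in all. Their members in the data are peaks of N6-methyladenosine (m6A), a methyl mark on adenosines inside messenger RNA, that the authors named after 1 of these genes. Of 25992 peaks in the authors' deposited tables, 14 carried such a name, 6 of 13450 in double-positive (DP) thymocytes and 8 of 12542 in invariant natural killer T (iNKT) cells. These 14 peaks bore the names of 6 of the 10 genes, and Rptor, Rictor, Fnip1 and Hk2 gave their name to none. Names and positions did not always match. Only 6 of the 14 peaks lay inside the gene they were named after, and 16 further peaks lay inside a member gene under the name of another gene. Both sets are given below, and each peak is said to be inside or outside the gene.

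The study compared wild-type (WT) mice with Mettl3fl/flCD4-cre mice, in which a floxed Mettl3 is deleted by a Cre recombinase driven by Cd4. Mettl3 encodes the catalytic subunit of the enzyme complex that writes m6A. Both genotypes were of the C57BL/6 background and 6 to 8 weeks old, and nothing in the labels says whether the WT mice carried floxed alleles or Cre. DP cells (CD4+CD8+, negative for the CD1d tetramer) gave 2 libraries for each genotype and library type, and iNKT cells (CD1d tetramer+ and T cell receptor beta+) gave 3, for 20 libraries in 8 groups. The library types were input RNA and m6A immunoprecipitate, both from polyadenylated RNA broken to about 150 nt. The labels do not say whether libraries came from separate mice or pools.

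The mechanistic target of rapamycin (mTOR) is a kinase that couples nutrients and growth signals to protein synthesis. It works in complex 1, built around Raptor, and in complex 2, built around Rictor. The Tsc1 and Tsc2 proteins hold complex 1 back, and folliculin-interacting protein 1 (Fnip1) acts in the branch that senses nutrients at the lysosome. Active complex 1 raises translation of Hif1a, a transcription factor that drives glycolytic genes, among them the glucose transporters Slc2a1 and Slc2a3 and hexokinase 2 (Hk2). Thymocytes change their glucose use as they pass from dividing to resting stages, and mTOR signalling is known to be needed for iNKT cell maturation. In many transcripts m6A lies around the stop codon, in the 3' untranslated region (UTR) or in long internal exons, where reader proteins can bind it and speed decay of the RNA.

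For each peak the authors' deposited tables hold a single value of each kind for the whole comparison of genotypes, with none per library. Depth of each library, spread between replicates and levels of the transcripts were therefore not analysed here, and the false discovery rates (FDRs) below are the authors' own. Fold enrichment is the linear ratio of immunoprecipitate to input, and the log2 fold change compares methylation between genotypes. The sources do not say which way it runs. Negative values are read here as likely lower methylation after Mettl3 deletion, because the deposited gene lists held 4336 of 4337 DP genes and 5339 of 5343 iNKT genes with a negative peak, and none of the genes without one. This assumes that the lists were meant to hold genes with less methylation after deletion, which the sources do not say. A peak is said to pass where its differential FDR was at most 0.05. Mettl3 had no peak in either table, so its deletion could not be checked. Of the iNKT markers, 6 of 9 had a peak inside the gene in iNKT cells (Zbtb16, Tbx21, Gata3, Il2rb, Klrb1c and Cd44). In DP cells it was 3 of 9 (Gata3, Il2rb and Slamf6). Of the DP markers, 4 of 9 had one in each cell type. Rag1, Cd8a and Cd8b1 had one in both, Cd4 in DP cells only and Cd1d1 in iNKT cells only. Carry-over of DP cells into the iNKT libraries was not tested. Among 13 markers of other thymus cells, 3 had a peak inside the gene in DP cells and 2 in iNKT cells, with Pecam1 in both.

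No member peak passed in DP cells, whether taken by name or by position. Among all DP peaks 1.23% passed in the authors' deposited table, in either direction. In iNKT cells 4 of the 8 peaks named after a member passed, all negative, against a background of 25.7% of iNKT peaks in either direction and 19.8% in the negative direction. Of those 4, only the Slc2a1 peak lay in the gene it was named after, and the other 3, named Hif1a, lay in Prkch. By position, 2 of the 9 iNKT peaks inside a member gene passed, in Slc2a1 and Rictor. That is 22.2%, beside the 19.8% of all iNKT peaks, and with 2 of 9 it is read no further. The median log2 fold change of the 9 peaks was -0.345, against -0.976 over all iNKT peaks in the authors' deposited table. Because the iNKT median lies below 0, 4 of the negative iNKT values that did not pass (Mtor exon 6, a Rptor peak, the Rictor 3' UTR and a Tsc1 peak) turn positive once it is subtracted. For the 13 DP peaks inside a member gene the median was 0, as it was over all DP peaks in the authors' deposited table.

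**Figure D1:**
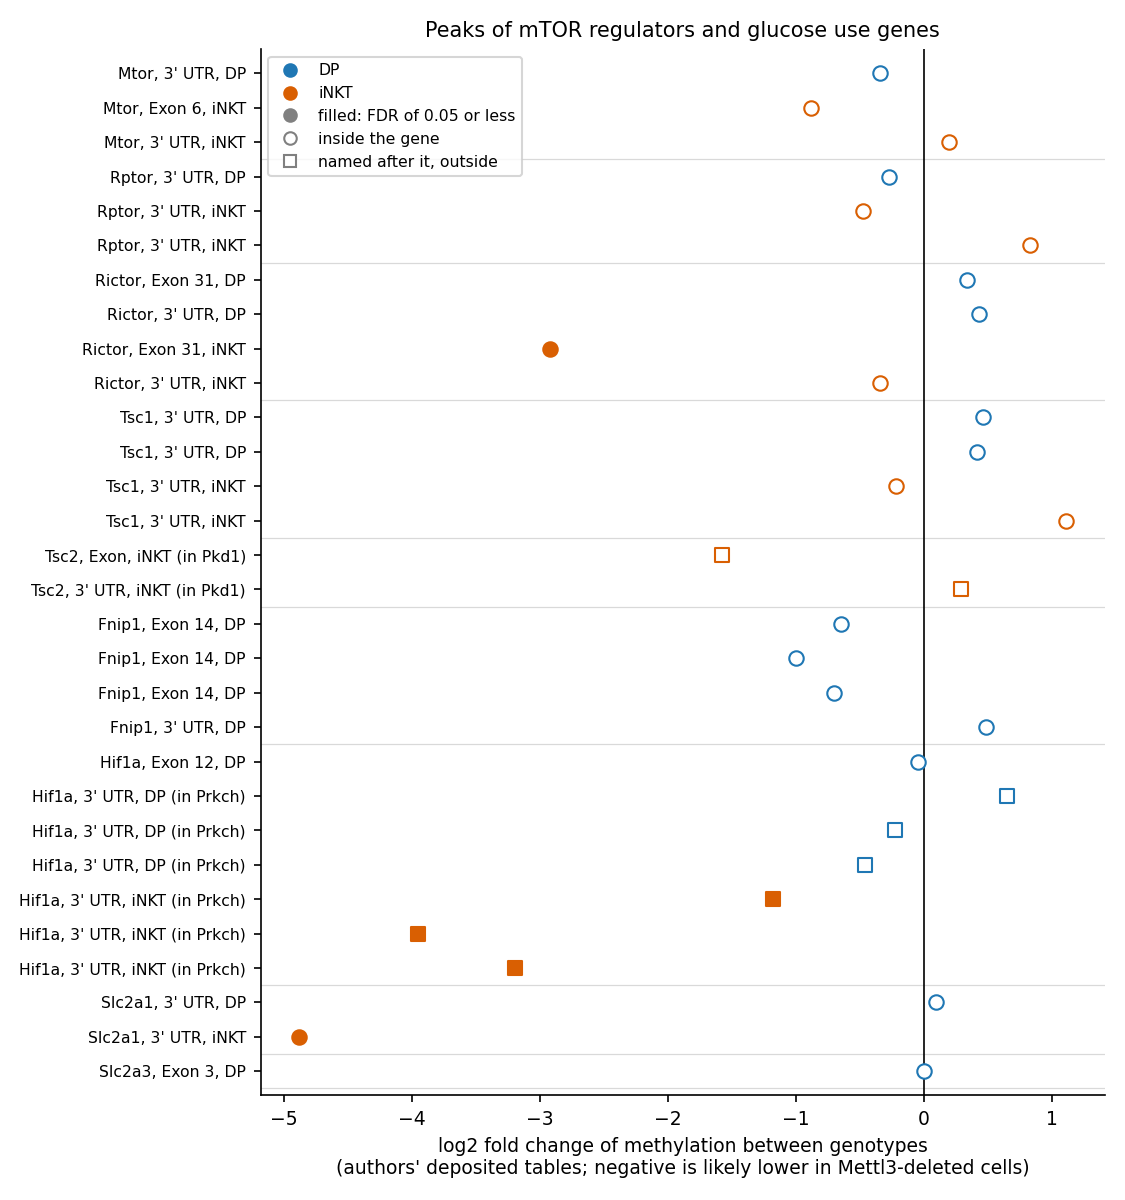
Log2 fold change between genotypes (x axis; negative is likely lower in Mettl3-deleted cells) of each peak inside a member gene (circles) or named after a member while lying in another gene (squares), in DP (blue) and iNKT (orange) cells; filled symbols passed at an FDR of 0.05 or less. The filled symbols are Slc2a1 at -4.88, Rictor exon 31 at -2.92 and the 3 peaks named Hif1a that lie in Prkch, all from iNKT cells; the 16 DP symbols are open and lie between -1 and 0.643.

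The glucose transporters differed in what was found. Slc2a1 encodes GLUT1, the main glucose transporter of activated lymphocytes. Its 3' UTR carried 1 peak in each table, at the very end of the gene. In DP cells the peak covered 330 nt (mm10 chr4:119136725-119137054, plus strand), ending 276 bases before the end of the RefSeq gene. Its fold enrichment over input was 14.9, higher than 90.1% of DP peaks in the authors' deposited table. Between genotypes it hardly differed, where the authors' deposited table gave a log2 fold change of 0.0886 and an FDR of 0.66. In iNKT cells the peak covered 690 nt (chr4:119136665-119137354) and contained the whole DP peak. Because it shares bases with the gene it is counted as inside, though it ran 24 bases past the RefSeq end. Its fold enrichment was 115 in the authors' deposited table, rank 342 of 12542 iNKT peaks. The log2 fold change was -4.88 (FDR 6.3e-17), a 29.4-fold difference, and 4.06% of iNKT peaks had a lower value in the authors' deposited table. This was the most negative value of any member peak in either table.

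Slc2a3 encodes GLUT3, a transporter with high affinity for glucose. It had 1 peak, in DP cells only, over 60 nt of its exon 3 of 9 (chr6:122737464-122737523, minus strand). That peak was among the weakest 10% of DP peaks by the authors' peak p-value, and the authors' deposited table gave it a fold enrichment of 6.01, a log2 fold change of 0 and an FDR of 0.77. Hk2, which encodes the hexokinase that commits glucose to glycolysis in many dividing cells, had no peak by name or by position in either table. A peak that is not listed does not show that a transcript lacks m6A, since the depth behind each gene is unknown.

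The name Hif1a stood on 4 DP and 3 iNKT peaks, but only 1 of these 7 lay in the gene, which encodes the hypoxia-inducible factor 1 alpha subunit. That peak covered 390 nt of exon 12 of 15 in DP cells (chr12:73941967-73942356, plus strand), a place where RefSeq also lists Gm15283. It belonged to the strongest 10% of DP peaks by peak p-value. Its fold enrichment was 4.33, its log2 fold change -0.0479 and its FDR 0.65 in the authors' deposited table, so no difference between genotypes was detected. No iNKT peak lay in Hif1a.

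The other 6 peaks named Hif1a began 123 to 126 kb before the start of Hif1a. They lay in the last part of Prkch, which encodes protein kinase C eta, where RefSeq also places the non-coding Gm34189 on the opposite strand. All 6 were on the plus strand and were annotated as 3' UTR. For the 3 iNKT peaks the authors' deposited table gave log2 fold changes of -1.18 (FDR 0.004), -3.95 (FDR 2e-21) and -3.19 (FDR 1.5e-10). Each passed, and each shared bases with a DP peak. None of the 3 DP peaks passed (lowest FDR 0.6), and the authors' deposited table gave them log2 fold changes of 0.643, -0.227 and -0.462. Counted as Hif1a, they would make it the member with the most passing peaks. Counted by position, Hif1a had none.

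Peaks named Tsc2 behaved likewise. Tsc2 encodes tuberin, which with hamartin, the Tsc1 product, switches off the small GTPase Rheb and so mTOR complex 1. Both peaks named Tsc2 were in iNKT cells and lay on the plus strand of Pkd1, while Tsc2 runs on the minus strand. They lay beyond the end of Tsc2, reaching 838 and 537 bases past it (chr17:24594978-24595071 and chr17:24595279-24595489). The authors' deposited table listed them at log2 fold changes of -1.58 and 0.284, each at FDR 0.76. The first had a fold enrichment of 31.3 in the authors' deposited table but was among the weakest 10% of iNKT peaks by peak p-value. No peak of either table lay inside Tsc2.

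Tsc1 had peaks annotated by the authors as 3' UTR in both cell types. In iNKT cells the peak bearing its own name covered 181 nt (chr2:28676059-28676239, plus strand) and lay 14.9 kb before the end of the gene. Its log2 fold change was -0.222 (FDR 0.76) and its fold enrichment 6.76 in the authors' deposited table. The other peaks inside Tsc1 were named Spaca9, after the neighbouring gene. They lay nearer the end of Tsc1 than the peak bearing its own name, and a spliced one was among them. Which transcript gave the 3' UTR label of the peak bearing Tsc1's name was not checked. One site was shared by the cell types and began at the same base (chr2:28686943-28687183 in DP cells, 28687213 as its end in iNKT cells). There the log2 fold change was 0.412 in DP cells and 1.11 in iNKT cells in the authors' deposited tables. The FDRs were 0.64 and 0.42, so neither passed. A second DP peak, spliced in 3 blocks of 301 nt in all, had a log2 fold change of 0.462 (FDR 0.58) in the authors' deposited table.

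Rictor encodes the scaffold of mTOR complex 2, which phosphorylates Akt. All 4 peaks inside it were named Osmr, after the next gene, although the annotation cited a Rictor transcript for the exonic ones. Both tables listed a peak in exon 31 of 38 and another in the 3' UTR. The exon 31 peak of iNKT cells covered 331 nt (chr15:6786877-6787207, plus strand), and stood in the authors' deposited table at a fold enrichment of 33.1 and a log2 fold change of -2.92 (FDR 0.00069). This 7.57-fold difference passed. The DP peak at that site was longer, 660 nt, and shared 271 nt with it. The authors' deposited table gave it a fold enrichment of 6.04 and a log2 fold change of 0.331 (FDR 0.54). In the 3' UTR the DP peak covered 1020 nt, the longest of any member, with a fold enrichment of 13.8 and a log2 fold change of 0.425 (FDR 0.42) in the authors' deposited table. The 210 nt iNKT peak lay wholly within it and had a fold enrichment of 9.75 and a log2 fold change of -0.345 (FDR 0.72) in the authors' deposited table. Within this transcript, then, the exonic iNKT peak passed and the 3' UTR peak did not. The difference between these peaks was not tested.

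Mtor encodes the kinase itself, and none of its 3 peaks passed. The iNKT peak bearing its name spanned a splice junction at exon 6 of 58 (chr4:148456032-148458749, 211 exonic nt, plus strand). It lay 7.45 kb from the gene's start, far forward of every other peak inside a member. Its fold enrichment was 4.98, its log2 fold change -0.88 and its FDR 0.76 in the authors' deposited table. At the other end of the gene 1 peak was listed in each table under the name Exosc10. In the authors' deposited tables the log2 fold change was -0.342 for the 661 nt DP peak (FDR 0.65) and 0.193 for the 91 nt iNKT peak (FDR 0.76). They lay 29 bases apart and shared none.

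Rptor encodes Raptor, which recruits substrates to complex 1. Its 3 peaks were named Chmp6, covered 61 to 91 nt each and ended at most 1.54 kb before the end of a gene of 297 kb, all in the 3' UTR. The DP peak had a log2 fold change of -0.272 (FDR 0.65), and the iNKT peaks had -0.477 and 0.823 (FDR 0.76 each), in the authors' deposited tables. The DP peak had a fold enrichment of 1.89 in the authors' deposited table, with 6.98% of DP peaks lower.

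Fnip1 encodes a partner of folliculin and of the energy sensor AMPK, and its loss is known to disturb lymphocyte and iNKT cell development in mice. It carried 4 peaks in DP cells, more than any other member, and none in iNKT cells. All 4 were named Rapgef6, after the next gene. In DP cells 3 of them lay side by side in exon 14 of 18 (chr11:54502290-54503666 from first to last base, plus strand). Their fold enrichments were 11.6, 6.42 and 7.05, and their log2 fold changes -0.652, -1 and -0.705, in the authors' deposited table. All 3 were negative, and none passed (FDR 0.59, 0.6 and 0.58). Lying in 1 exon of 1 transcript, they are not independent of each other. The fourth peak, in the 3' UTR, was weaker (fold enrichment 2.63) and positive, at 0.484 (FDR 0.65), in the authors' deposited table.

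The rule used gene names, which are tied to position, as many peaks late in a member bore the next gene's name. The 22 peaks counted here were taken by position, a step added after the data were seen. Of the 22 peaks inside a member gene, 20 had their midpoint in the last 20% of the gene span, introns included. This held for 13 of 13 DP and 7 of 9 iNKT peaks. The annotation used gave no strand for Slc2a3, so it was treated as on the minus strand, which is the strand of its peak. Without this peak the count was 19 of 21. Over all peaks inside exactly 1 RefSeq gene on its strand, whatever their name, the share was 49.7% in DP cells and 52.7% in iNKT cells. The member count kept the Hif1a exon 12 peak, where RefSeq also lists Gm15283, and gene length was not matched. Of the 6 peaks that lay inside the gene they are named after, 4 were in the last 20%, 3 of 3 in DP and 1 of 3 in iNKT cells. Among all peaks that match their name in this way the share was 41.4% in DP cells and 43.1% in iNKT cells. The exceptions were the peak at Mtor exon 6 and the Tsc1 peak bearing its own name. By the authors' annotation 14 of the 22 lay in a 3' UTR and 8 in an exon, and no member peak was in a 5' UTR. Among the 14 is the iNKT Tsc1 peak bearing its own name, which lay 14.9 kb before the gene's end. In DP cells 53.8% were in a 3' UTR, against 45.5% of all DP peaks. In iNKT cells the share was 77.8%, against 45.2% of all iNKT peaks. Peaks in the same gene share a transcript, so these shares are a description with no test.

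**Figure D2:**
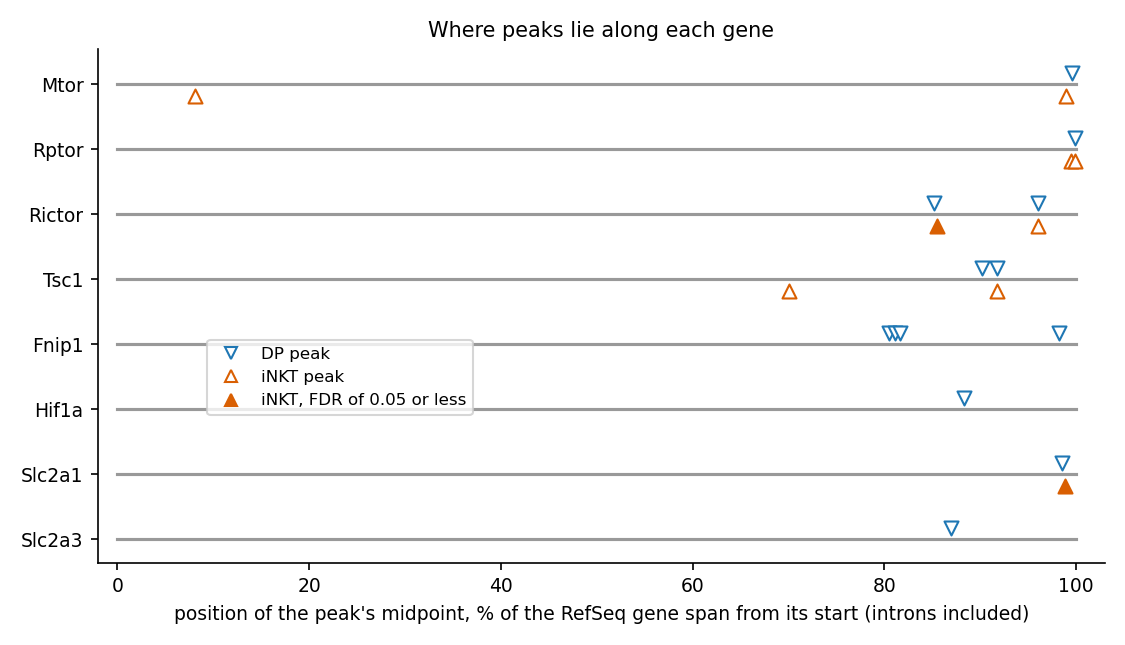
Midpoint of each of the 22 peaks inside a member gene, in % of the RefSeq gene span from its start (x axis, introns included), with DP peaks above and iNKT peaks below each gene's line and filled symbols for an FDR of 0.05 or less. Of the 22 peaks, 20 lie in the last 20% of the span; the iNKT peaks of Mtor exon 6 and of Tsc1 lie further forward, and Tsc2 and Hk2 have no peak.

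Peaks at the same site in both tables were compared next, with a match set at 1 or more exonic bases in common and an equal strand. Inside member genes 4 pairs matched, in Rictor (exon 31 and 3' UTR), Slc2a1 and Tsc1. The shared bases were 88.9% of the longer peak for Tsc1, 47.8% for Slc2a1, and 41.1% and 20.6% for Rictor, so with at least 50% of the longer peak required only the Tsc1 pair would remain. With at least 50% of the shorter peak required all 4 pairs remained. In the authors' deposited tables the iNKT enrichment was the higher in 3 of the 4, by 7.72 times for Slc2a1, 5.48 times for Rictor exon 31 and 2.7 times for Tsc1, and was 0.707 times the DP value at the Rictor 3' UTR. Over every matched pair, member or not, iNKT enrichment was the higher in 58.9%. The pairs that passed in iNKT cells, Slc2a1 and Rictor exon 31, were those with the largest ratios. Their log2 fold changes were near 0 or slightly positive in DP cells (0.0886 and 0.331) in the authors' deposited table. The tables were made separately, and the labels name a standard and a low-input protocol without saying which cells had which. Cell type and protocol therefore cannot be told apart, and the difference between cell types was not tested.

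**Figure D3:**
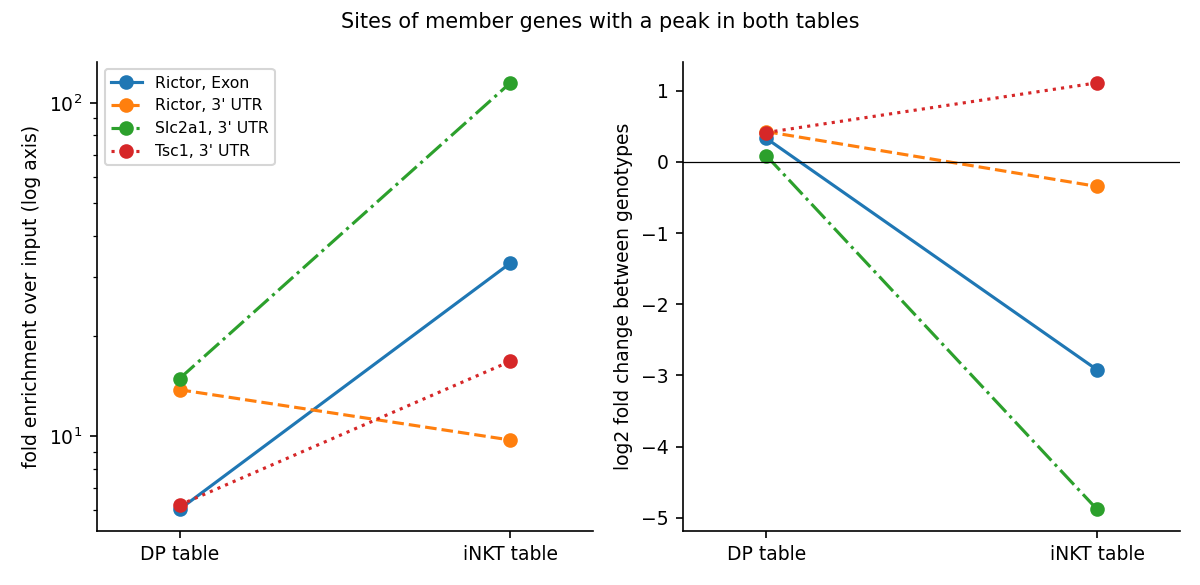
Fold enrichment over input (left, log axis) and log2 fold change between genotypes (right) at the 4 sites of member genes with a peak in both tables; each line joins the DP and iNKT values of 1 site. Slc2a1 goes from 14.9 to 115 in enrichment and from 0.0886 to -4.88 in log2 fold change, Rictor exon 31 from 6.04 to 33.1 and from 0.331 to -2.92.

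The iNKT member peaks that passed were also strong peaks by the authors' peak p-value. All iNKT peaks were sorted by the authors' peak p-value into 10 equal bins, and 86.4% passed in the strongest bin against 3.82% in the weakest. The shares of these bins count both directions. Negative peaks were 1047 of the 1084 that passed in the strongest bin, but 1 of the 48 in the weakest. The Slc2a1 peak was in the strongest bin and the Rictor exon 31 peak in the next, where 59.5% passed. The 3 peaks named Hif1a that lay in Prkch were in these 2 bins too. Their fold enrichments of 6.83, 4.6 and 5.56 lay below the iNKT median of 8.32. Of the iNKT peaks inside a member gene that did not pass, the Tsc1 site shared with DP cells and the Rictor 3' UTR were in a bin where 37.0% passed. The peaks of Mtor, Rptor and the Tsc1 peak bearing its own name were in bins where 3.82% to 14.2% passed. The part of peak strength in the result was not tested. In DP cells the strongest bin, which held the Hif1a exon 12 peak, had 6.25% passing. The DP peaks at the Slc2a1 and Rictor exon 31 sites were in bins where 0.446% and 2.38% passed.

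**Figure D4:**
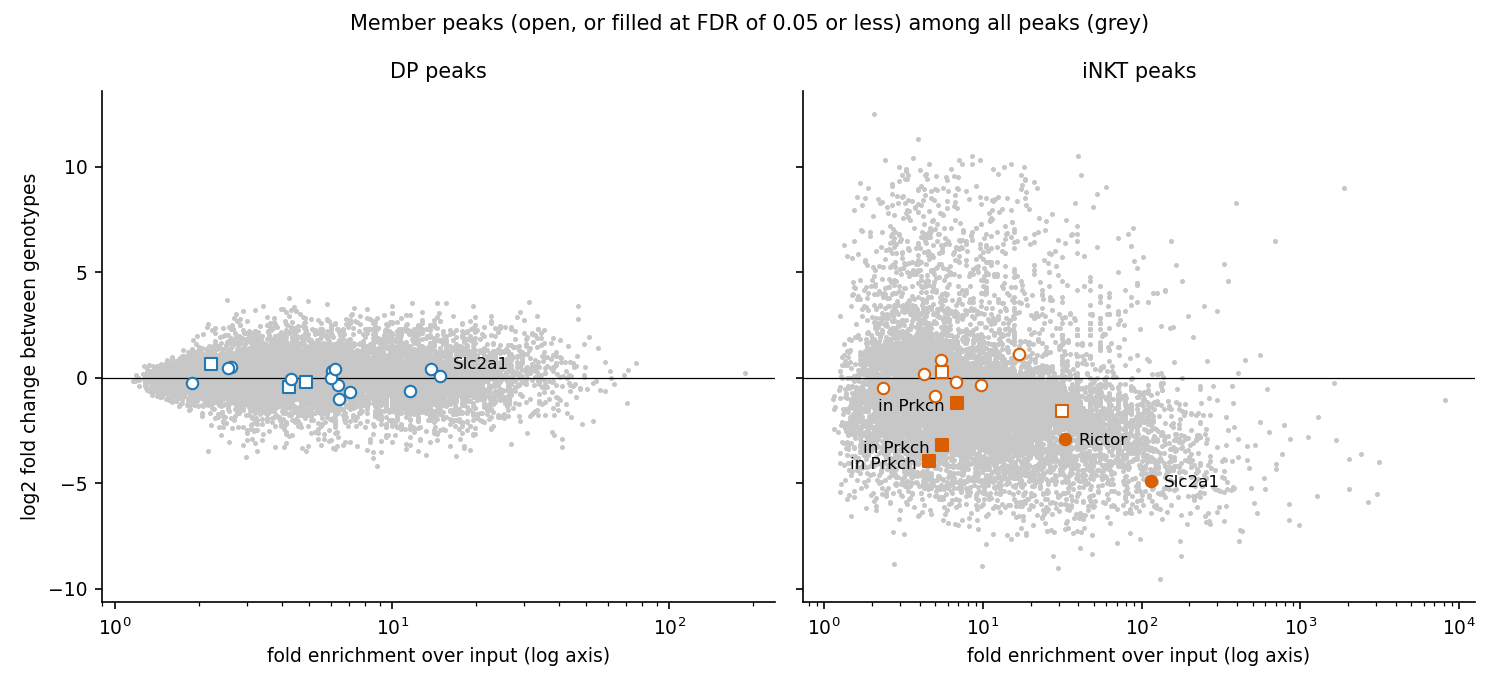
Fold enrichment over input (x axis, log) against log2 fold change between genotypes (y axis) for all DP peaks (left) and all iNKT peaks (right) in grey, with peaks inside a member gene as circles and peaks named after a member but lying elsewhere as squares; filled symbols passed at an FDR of 0.05 or less. Slc2a1 lies far to the right and low among iNKT peaks (115 and -4.88), Rictor exon 31 at 33.1 and -2.92, and the 3 filled squares are the peaks in Prkch at 6.83, 4.6 and 5.56 times input.

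A wider set of 125 genes in 5 lists, members included, was then read in the same way. In DP cells 46 had a peak under their name and 1 passed, against 2.3% of all DP genes with a peak. It lay in Pdcd4, a translation inhibitor degraded on mTOR signalling, with a log2 fold change of -0.304 (FDR 0.034) in the authors' deposited table. In iNKT cells 63 had a peak under their name. A negative peak passed in 9 (14.3%) and a positive peak in 9 (14.3%), against 26.2% and 9.64% of all iNKT genes with a peak. By position 61 had a peak, and the shares were 12 genes (19.7%) and 9 genes (14.8%). The shares over all genes are by name, and none with peaks taken by position was computed. No gene of the lists passed in both cell types.

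Of the 12 genes of the mTOR complexes, 5 had an iNKT peak under their name and only Tti1, which encodes an assembly factor of mTOR, passed. Its 91 nt peak had a fold enrichment of 3.6 and a log2 fold change of 5.46 (FDR 0.005) in the authors' deposited table. Among 43 genes upstream of complex 1, 25 had a peak, with a passing negative peak in 2 and a positive one in 3. Over all iNKT genes with a peak, 26.2% had a passing negative peak and 9.64% a passing positive one. Stk11 encodes LKB1, the kinase that activates AMPK, and its 5' UTR peak had a log2 fold change of -6.19 (FDR 1.6e-14) in the authors' deposited table. Itfg2, part of the KICSTOR complex that restrains complex 1, had 8.27 (FDR 6.6e-07) in the authors' deposited table. Fold enrichments of these peaks were 11.5 for Stk11 and 392 for Itfg2. The peak named Lamtor3 (6.63 in the authors' deposited table) lay in Dnajb14.

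Downstream of mTOR 12 of 19 genes had an iNKT peak under their name, with passing negative peaks in 3 and positive peaks in 2. Over all iNKT genes with a peak the shares were 26.2% and 9.64%. Larp1, which encodes a repressor of mRNAs with 5' terminal oligopyrimidine tracts, had 4 passing peaks, all negative. The strongest lay in the 3' UTR, with a fold enrichment of 420 and a log2 fold change of -7.22 (FDR 4e-49) in the authors' deposited table. Rps6, a ribosomal protein gene whose product is phosphorylated by S6 kinases, had a 90 nt peak at 9.87 (FDR 7.9e-29) in the authors' deposited table. Rps6kb2, which encodes one of those kinases, had a peak at 3.42 (FDR 2.5e-09) in the authors' deposited table, while a negative peak under its name lay in Ptprcap. Fold enrichments were 11.5 for the Rps6 peak and 2.91 for the positive Rps6kb2 peak.

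In the hypoxia factor list 8 of 10 genes had an iNKT peak under their name, 2 with a passing negative and 2 with a passing positive peak. Shares over all iNKT genes with a peak were 26.2% and 9.64%. One of the negative 2 was Hif1a, by the peaks that lay in Prkch. Vhl encodes the ubiquitin ligase subunit that marks HIF1A for destruction, and its 3' UTR peak had a log2 fold change of 8.41 (FDR 2.5e-07) in the authors' deposited table. Egln2, which encodes a prolyl hydroxylase of HIF1A, had 4 (FDR 1.8e-08), and Siah2, which encodes a ligase that degrades such hydroxylases, had -5.48 (FDR 3.7e-06), in the authors' deposited table. Fold enrichments were 11.4 for Vhl, 7.69 for Egln2 and 20.2 for Siah2. Of 41 genes of glucose transport and glycolysis, 13 had an iNKT peak under their name, with passing negative peaks in 2 and positive in 1. The same 26.2% and 9.64% over all iNKT genes stand beside these counts. Besides Slc2a1, Slc16a1, which encodes the lactate transporter MCT1, had -3.5 (FDR 0.026) over 90 nt in the authors' deposited table. Gpi1, which encodes glucose-6-phosphate isomerase, had 5.95 (FDR 2.2e-08) in the authors' deposited table, on the strand opposite to the gene, and 3.39 (FDR 0.00021) on its own strand. Fold enrichments were 2.79 for the Slc16a1 peak, and 9.97 and 247 for the Gpi1 peaks in that order.

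**Figure D5:**
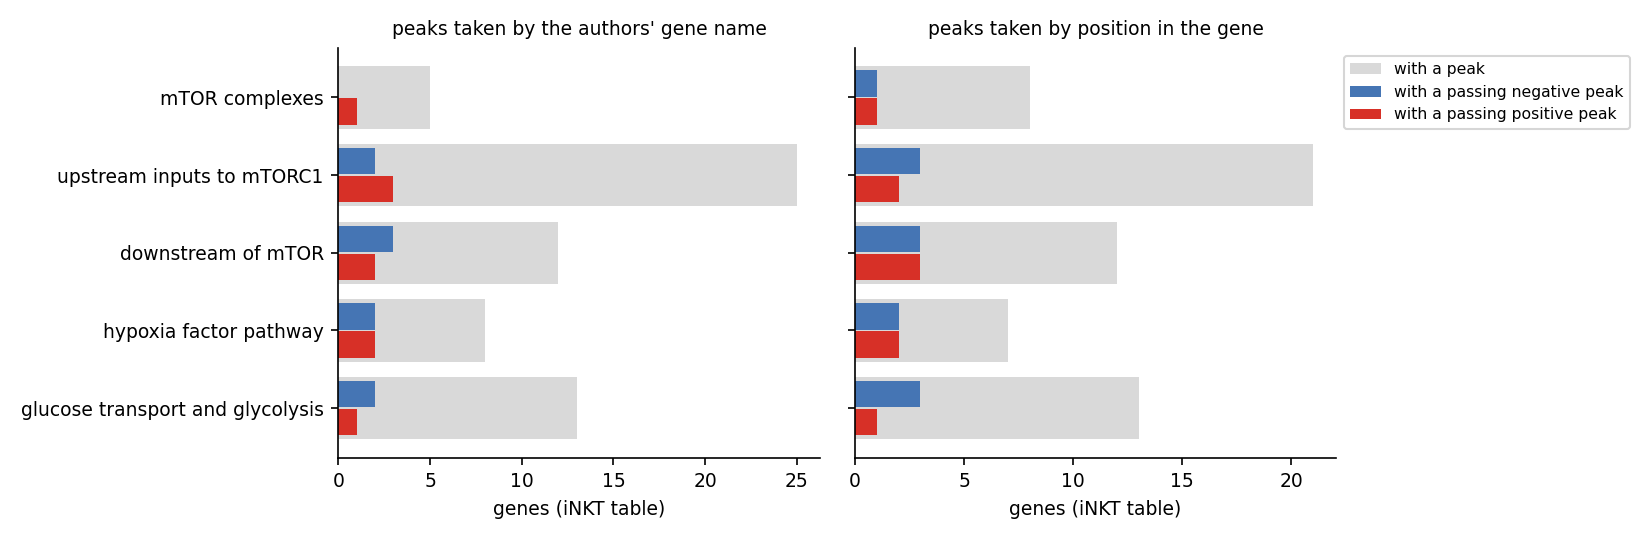
Genes of each of the 5 lists in the iNKT table (x axis, number of genes) with any peak (grey), a passing negative peak (blue) and a passing positive peak (red), with peaks taken by the authors' gene name (left) or by position in the gene (right). Negative and positive genes number 9 and 9 by name and 12 and 9 by position, and the mTOR complexes gain 1 negative gene, Rictor, by position.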

How the data were processed

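The study immunoprecipitated m6A from RNA of sorted DP and iNKT thymocytes of WT and Mettl3fl/flCD4-cre mice. The build was mm10, and HOMER 4.9.1, RSEM 1.3.0, STAR 2.6.0a, Trim Galore 0.6.5 and FastQC 0.11.5 were used, per the submitters' processing notes. The deposited tables carry the name of the exomePeak package, whose version and handling of replicates the sources used here do not state. Per the file headers, each deposited peak has a p-value, a linear ratio of immunoprecipitate to input (fold enrichment) and a log2 fold change between genotypes. The log10 values of the p-value and FDR, per the file headers, are treated as scores. The deposited gene lists hold symbols alone.

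Repeats of a peak (equal coordinates, strand and blocks) were dropped, 5 in DP and 24 in iNKT cells. Peaks were set against gene spans of RefSeq (GRCm38.p6, the primary coordinates of mm10). For the lists by position the gene's strand was required where given, and the peaks inside members lay on it where given. The shares of all peaks outside the gene they were named after ignored strand. In RefSeq, 13385 DP and 12478 iNKT peaks had their name found. No test was run, because the tables hold no value per library; FDRs are the authors'. The overlap functions were tested on simulated data. The members and lists were chosen with earlier results of these data known. All 10 members are named, with, for each list, the 3 passing iNKT peaks of largest absolute change under a list gene's name. Assigning peaks by position was added after seeing the data. A motif search and peak sequences need a genome and were not run. Scripts used pandas 2.3.3, numpy 2.4.6 and matplotlib 3.10.9 under Python 3.11.15.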

Additional observations from a re-analysis of the deposited data

How the results depend on the processing

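The 4 negative iNKT peaks named after a member stayed at 4 with FDR thresholds of 0.01 and 0.1, with repeated peaks kept, with a minimum fold enrichment of 2, with a peak FDR of 0.001 or less, with a minimum 2-fold change and with the strand of the named gene required. The count was 1 with peaks inside the named gene only and 2 with any peak inside a member. With the sign turned it was 0, with 4 positive peaks in its place, and the passing values became 1.18, 3.95 and 3.19 (named Hif1a), 2.92 (Rictor) and 4.88 (Slc2a1). No DP member peak passed under any of these settings. The median log2 fold change of peaks named after a member was -1.38 in iNKT cells, -0.403 with the table's median subtracted, 1.38 with the sign turned and -0.345 with any peak inside a member. Subtracting the table's median also turned the direction of 4 iNKT values that did not pass, to 0.499 for a Rptor peak, 0.631 for the Rictor 3' UTR, 0.754 for a Tsc1 peak and 0.0965 for Mtor exon 6. In DP cells it was -0.0239, 0.0239 with the sign turned and 0 with any peak inside a member. Of 8 matched pairs, 4 inside a member and 4 in Prkch, 4 stayed when the overlap had to cover 50% of the longer peak (Tsc1 and 3 in Prkch), and 7 when it had to cover 50% of the shorter. Over all DP peaks, 40 negative and 26 positive passed at an FDR of 0.01, and 168 and 111 at 0.1. The single DP gene of the lists, Pdcd4, was lost at an FDR of 0.01, leaving 0. No paired analysis was possible because the deposited tables hold no column per library, and for that reason no replicate could be left out. The motif alternatives were not run for want of a genome. The depth of the libraries limits which peaks are listed and is unknown.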

Other observations

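Names and positions parted in all of the data, not just in these genes. Of peaks with a name found in RefSeq, 21.3% of DP and 25.1% of iNKT peaks lay outside the span of the gene they were named after, strand ignored. In the member genes the share was 8 of 14, all of them lying in Prkch or Pkd1. The peaks in Prkch overlapped between the cell types, so the 8 are not independent of each other.

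Taking peaks by position brought list genes into view that their names had hidden, chosen here after their values were seen. Eif4ebp2, which encodes a repressor of cap-dependent translation and a substrate of mTOR complex 1, had 3 passing iNKT peaks in its 3' UTR, all named Nodal. Their log2 fold changes were 3.08, -1.46 and 10.3 in the authors' deposited table (FDR 1e-15, 0.0066 and 4e-30), so the 3' UTR held passing peaks of both signs. A 3' UTR peak in Hk1, which encodes the hexokinase found in most tissues, was named Tacr2 and had -2.11 (FDR 6.9e-05) in the authors' deposited table. Egln1, which encodes the main prolyl hydroxylase of HIF1A, had -3.79 (FDR 0.0025) in a peak named Sprtn in the authors' deposited table.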
